A study of Drosophila melanogaster with 3 samples.

Results

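The genes described here are 10 core components of the Notch pathway of Drosophila melanogaster, chosen by name: the receptor N, the ligands Dl and Ser, the nuclear factors Su(H), H and mam, and the modulators neur, fng, kuz and numb. They are 10 of the 13945 protein-coding genes, and of the 18164 genes of all kinds, that the Ensembl models place on the 6 main chromosome arms. All 10 were found in those models, where Dl is listed as Delta. The binding sites of CG5245, a C2H2 zinc finger protein, were mapped by chromatin immunoprecipitation followed by sequencing (ChIP-seq) in 1 group of embryos, with 3 biological replicates. The embryos were whole, of both sexes and 0 to 16 h old, and came from 1 transgenic line that stably expressed CG5245 fused at its C terminus to GFP. The labels' description names an antibody against GFP, whereas their antibody field reads CG5245. Chromatin was sonicated to 200 to 800 bp. Control chromatin was not analysed here, and no other genotype or stage was compared. The promoter that drove the transgene is not given in the sources used here. Since whole embryos were used, strong binding in few cells and weak binding in many cells cannot be told apart, and the lists hold no expression values with which cell types could be checked.

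Notch signalling passes information between cells that touch. Dl and Ser on a sending cell bind the receptor N on its neighbour, kuz cuts the outer part of the bound receptor, and a second cut within the membrane frees the inner part of N. That part enters the nucleus, joins Su(H) and mam on DNA and turns target genes on, while in its absence H holds Su(H) in a repressing complex. In the embryo the pathway is best known for limiting how many cells of the ectoderm become neural precursors and for setting apart the daughters of asymmetric divisions.

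The deposited lists give for each region a summit, the base of strongest enrichment, and a signal, a score from the authors' peak caller that is used here to rank regions within a list. The reproducible set, made by the authors with the irreproducible discovery rate, held 3670 peaks with signals between 92.4 and 2002 and a median of 148. The candidate lists held 30000 regions for the pooled replicates, 30000 each for replicates 1 and 2, and 29608 for replicate 3. They include many weak regions. The 3670 regions of highest signal in each replicate are called its top regions. The lists hold no read counts, so the depth is unknown, and the absence of a peak cannot be given as a limit on binding.

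The reproducible set had 9 peaks at or in the 10 genes, and all 9 belonged to 4 genes, N, mam, neur and numb. The sequences that carry this result are shown as 101 bp windows centred on the summit, read from the Release 6 RefSeq assembly (dm6), 5′ to 3′ on the plus strand, with capitals for a match to a searched motif. The first 5 windows are the peaks of N, neur and numb. The remaining 2 are the strongest candidate regions at the starts of Dl and Ser, the ligand genes that had no reproducible peak, given for contrast. No window of mam is printed.
N peak 1 (chrX:3134535-3134635): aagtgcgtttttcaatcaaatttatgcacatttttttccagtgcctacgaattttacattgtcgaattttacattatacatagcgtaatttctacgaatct
N peak 2 (chrX:3162443-3162543): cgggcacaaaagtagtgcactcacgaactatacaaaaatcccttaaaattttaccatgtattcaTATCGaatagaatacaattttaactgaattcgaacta
neur peak 1 (chr3R:9033850-9033950): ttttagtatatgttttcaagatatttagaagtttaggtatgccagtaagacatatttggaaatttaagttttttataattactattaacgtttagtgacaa
neur peak 2 (chr3R:9031976-9032076): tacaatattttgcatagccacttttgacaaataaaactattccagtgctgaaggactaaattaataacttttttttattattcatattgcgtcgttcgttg
numb peak 1 (chr2L:9449646-9449746): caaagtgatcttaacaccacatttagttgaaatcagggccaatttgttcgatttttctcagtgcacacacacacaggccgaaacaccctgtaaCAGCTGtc
Dl promoter candidate (chr3R:19326139-19326239): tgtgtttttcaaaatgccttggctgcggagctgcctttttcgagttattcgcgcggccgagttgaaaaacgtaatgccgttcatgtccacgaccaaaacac
Ser promoter candidate (chr3R:27194194-27194294): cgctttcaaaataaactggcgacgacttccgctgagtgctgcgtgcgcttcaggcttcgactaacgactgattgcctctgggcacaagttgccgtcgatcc
The capitals in N peak 2 are CGATA on the minus strand, the short motif of the insulator protein BEAF-32. Those in numb peak 1 are CAGCTG, a form of the E box bound by basic helix-loop-helix proteins. The A and T share of the windows was 70.3% in N peak 1, 68.3% in N peak 2, 77.2% in neur peak 1, 71.3% in neur peak 2 and 56.4% in numb peak 1, against 51.5% in the Dl window and 44.6% in the Ser window. This order did not hold for all members, since the share was 37.6% at mam peak 2, which is reproducible, and 68.3% at the promoter candidate of kuz, which is not. The windows also differ in position. Those of Dl and Ser span a transcription start, with summits 28 and 23 bp downstream of it. Those of N, neur and numb lie upstream of a start or in introns. An effect of position on the share was not tested.

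A gene was called occupied when a reproducible summit lay within 500 bp of a transcription start site (TSS) of any of its transcripts. By this rule 4 of the 10 Notch pathway genes were occupied, the receptor (1 of 1), none of the ligands (0 of 2), mam among the nuclear factors (1 of 3), and neur and numb among the modulators (2 of 4). Of all protein-coding genes, 15.8% were occupied. The same 4 were the members with a reproducible summit at a TSS or in the body, against 20.2% of all protein-coding genes. They were also those with a reproducible summit inside the gene body, for which the share of all protein-coding genes was 9.85%. In N, mam and neur such a summit lay over 500 bp from every TSS of the gene, against 6.41% of all protein-coding genes. With 10 genes chosen by name these counts are a description, and no test was made. Where a promoter peak also had to be a top region of both remaining replicates, leaving out replicate 1, 2 or 3 gave 3 occupied genes each time, without N, against 11.5%, 11.8% and 12.4% of all protein-coding genes. Among peaks above the median signal of the set only numb was occupied (1 of 10), against 8.60% of all protein-coding genes. In the gene body N, mam, neur and numb all kept such a peak, against 5.80% of all protein-coding genes.

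The shares over all protein-coding genes differed with gene length and with the number of TSSs. The 10 genes had a median length of 23.6 kb, against 2.17 kb for all protein-coding genes. Among genes of 20 to 50 kb, which include 5 of the 10, 40.5% had a reproducible summit in the body, and N and numb were the 2 of those 5. Among genes over 50 kb the share was 53.1%, with mam having such summits and kuz none. It was 21.4% among genes of 5 to 20 kb, where neur had summits and H none, and 3.79% below 5 kb, where Su(H) had none. Per 10 kb of gene body the 10 genes held 0.249 reproducible summits, against 0.225 in all protein-coding genes. Genes with 2 or more TSSs were occupied in 26.4% of cases and genes with 1 TSS in 12.1%, a split chosen after the values were seen. Of the 4 members with several TSSs, mam, neur and numb were occupied and Ser was not. Of the 6 with 1 TSS, only N was. By length, the promoter share was 14.0% among genes under 5 kb and 21.7% among genes of 5 to 20 kb. It was 21.0% among genes of 20 to 50 kb, of which N and numb were the 2 occupied of 5 members, and 20.5% among genes over 50 kb, of which mam was the 1 occupied of 2. Length and number of TSSs were not separated.

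**Figure D1:**
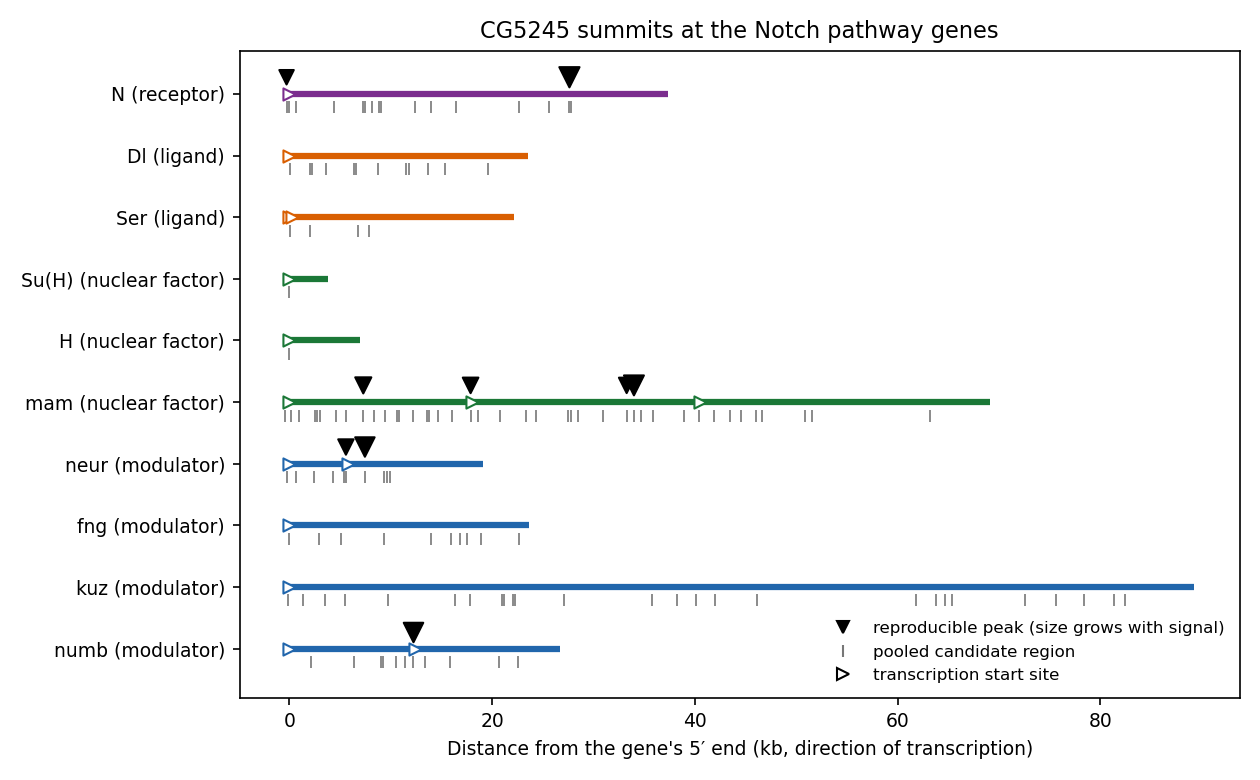
The 10 genes drawn from their 5′ end in the direction of transcription (x axis, kb), with TSSs as open triangles, reproducible peaks as black triangles whose size grows with the signal, and pooled candidate summits as grey ticks. All 9 reproducible peaks lie at N, mam, neur and numb, while kuz, at 89.3 kb the longest of the 10, has 25 candidate summits in its body and no reproducible one.

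The receptor gene N (FBgn0004647, X, 3134870 to 3172221, plus strand) encodes the transmembrane receptor itself and had 2 reproducible peaks of very different strength. N peak 1 lay at the promoter, with its summit at 3134585, 285 bp upstream of the single TSS. Its signal was 44.3 in replicate 1 (rank 3166), 28.9 in replicate 2 (rank 4010) and 25.7 in replicate 3 (rank 4014). It was thus a top region of replicate 1 and stood just below that level in replicates 2 and 3. In the pooled list it ranked 3268 with a signal of 100.4, near the lower edge of the reproducible set. N peak 2 lay within intron 5 of both annotated transcripts, with its summit at 3162493, 27623 bp from the gene's 5′ end. Its signal was 118 in replicate 1 (rank 496), 104 in replicate 2 (rank 415) and 90.0 in replicate 3 (rank 385). The ranks were close in the 3 replicates, and its pooled signal of 309 (rank 426) was the highest of the 9 peaks. The nearest TSS of any gene, that of CG18508, was 10647 bp away, so this peak had no promoter within 500 bp.

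The ligand genes Dl and Ser had no reproducible peak at a promoter or in the body. Dl (FBgn0000463, 3R, 19302731 to 19326217, minus strand) encodes Delta, the main ligand in the choice of neural precursors. Its promoter carried a candidate region in every list, with a signal of 13.9 in replicate 1 (rank 21875), 18.1 in replicate 2 (rank 8280) and 28.9 in replicate 3 (rank 3294). The replicates therefore differed widely, and only replicate 3 had the region among its top regions. The pooled rank was 6314. Dl also had 12 pooled candidate summits in its body, or 5.11 per 10 kb, against 3.92 per 10 kb over the 10 members together, 2.50 in protein-coding genes of 20 to 50 kb and 2.19 in all protein-coding genes. Ser (FBgn0004197, 3R, 27172090 to 27194267, minus strand) encodes Serrate, the ligand known from the wing margin. At its 2 TSSs, which lie close together, the strongest candidate ranked 16961, 19440 and 6758 in replicates 1, 2 and 3, and 9097 in the pooled list. These were not all the same site, since the replicate 1 region did not overlap the pooled one. At the pooled site replicate 1 had a region of rank 20997. None of these was a top region.

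The nuclear factors differed from each other. Su(H) (FBgn0004837, 2L, 15039488 to 15043334, plus strand), the DNA-binding protein on which the pathway converges, had a promoter candidate of signal 14.4 in replicate 1 (rank 20508), 25.9 in replicate 2 (rank 4752) and 16.5 in replicate 3 (rank 10970). Its pooled rank was 11441, and the pooled list had no summit in its body. H (FBgn0001169, 3R, 20621938 to 20628915, plus strand) encodes Hairless, the adaptor that ties Su(H) to corepressors. Its promoter candidate had a signal of 13.5 in replicate 1, 13.1 in replicate 2 and 13.5 in replicate 3. The ranks were 22794, 14852 and 17653, all far outside the top regions, and the pooled rank was 14240.

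The third nuclear factor, mam (FBgn0002643, 2R, 13991203 to 14060356, plus strand), encodes the coactivator Mastermind and had 4 reproducible peaks, the most of the 10 genes. mam peak 1 lay in an intron, 7285 bp from the 5′ end, and ranked 2018, 2781 and 1571 in replicates 1, 2 and 3. mam peak 2 was a promoter peak, 124 bp upstream of the second of 3 TSSs, with a signal of 49.8 in replicate 1 (rank 2634), 51.3 in replicate 2 (rank 1701) and 38.2 in replicate 3 (rank 2087). That TSS serves 2 of the 4 transcripts. Peaks 3 and 4 lay side by side in an intron, with summits at 14024472 and 14025192 that were 720 bp apart. mam peak 4 was the stronger, with a signal of 106 in replicate 1 (rank 632), 107 in replicate 2 (rank 385) and 92.8 in replicate 3 (rank 361), while peak 3 ranked 2586, 2493 and 2203. All 4 peaks were top regions in all 3 replicates. Of the 307 genes over 50 kb, 36 had at least 4 reproducible summits in the body.

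At its other TSSs mam had candidates only. The region at the 5′-most TSS had a signal of 30.2 in replicate 1 (rank 5876), 14.6 in replicate 2 (rank 12072) and 37.8 in replicate 3 (rank 2143), and a pooled rank of 4108, not far outside the reproducible set. It was a top region in replicate 3 only. The replicates also differed in how many top-region summits they placed in the body of mam, which were 5 in replicate 1, 4 in replicate 2 and 9 in replicate 3.

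Among the modulators, neur and numb were occupied. The gene neur (FBgn0002932, 3R, 9020348 to 9039471, minus strand) encodes Neuralized, a ubiquitin ligase that drives uptake of the ligands in the sending cell. neur peak 1 had its summit 169 bp upstream of the second of 2 TSSs, which lies inside the gene and serves 2 of the 5 transcripts. Its signal was 56.1 in replicate 1 (rank 2185), 42.8 in replicate 2 (rank 2245) and 33.0 in replicate 3 (rank 2655). neur peak 2 lay 1705 bp downstream of that TSS in intron 1 of all 5 transcripts. It was stronger, with a signal of 125 in replicate 1 (rank 420), 76.7 in replicate 2 (rank 816) and 72.4 in replicate 3 (rank 615). The 5′-most TSS of neur had a candidate with a pooled rank of 6475.

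The gene numb (FBgn0002973, 2L, 9437469 to 9464184, plus strand) encodes an endocytic adaptor that is passed to 1 daughter cell at division and blocks N there. numb peak 1, its only reproducible peak, had its summit at 9449696, 134 bp upstream of the second of 2 TSSs, which serves 2 of the 3 transcripts. Its signal was 114 in replicate 1 (rank 534), 85.3 in replicate 2 (rank 652) and 82.4 in replicate 3 (rank 468). With a pooled signal of 279 (rank 545) it was the strongest promoter peak of the 10 genes, and the only one of their 4 promoter peaks above the median signal of the set. The 5′-most TSS of numb had no candidate in the pooled list or in replicates 1 and 3, and 1 in replicate 2 at rank 20552. In mam, neur and numb alike the reproducible promoter peak therefore lay at an internal TSS and not at the 5′-most one. All 4 promoter summits lay upstream of their TSS, and none lay within 500 bp of a TSS of another gene. The same shares over all reproducible promoter peaks were not computed, so neither trait can be called particular to these genes.

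The modulators fng and kuz had no reproducible peak within 500 bp of a TSS or in the body. The gene fng (FBgn0011591, 3L, 20925891 to 20949512, minus strand) encodes Fringe, a glycosyltransferase that alters how N responds to its ligands. Its promoter candidate was the weakest of the 10 in the pooled list (rank 21076), with rank 11183 in replicate 1 and 18346 in replicate 2 and no region in replicate 3. A reproducible peak lay 763 bp upstream of its TSS, outside the 500 bp limit, with a pooled signal of 99.9 (rank 3286). It was a top region in 2 replicates, and the nearest TSS, 508 bp away, was that of the non-coding gene lncRNA:CR45243. Another reproducible peak, with its summit at 20923429 beyond the 3′ end of fng, had a signal of 117 (rank 2626). The strongest candidate inside fng ranked 4377 in the pooled list and was a top region in replicate 2 only. The gene kuz (FBgn0259984, 2L, 13550139 to 13639411, plus strand) encodes the metalloprotease Kuzbanian. Its promoter candidate had a signal of 40.3 in replicate 1 (rank 3732), 26.2 in replicate 2 (rank 4664) and 25.5 in replicate 3 (rank 4073). All 3 ranks lay outside the top regions, closest in replicate 1, and the pooled rank was 5711. A reproducible peak of signal 92.9 (rank 3641, among the lowest of the set) lay 1851 bp upstream of kuz, inside the neighbouring gene B4. The body of kuz held 25 pooled candidate summits and no reproducible one. Of the 110 genes at least as long, 48 had no reproducible summit in the body.

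**Figure D2:**
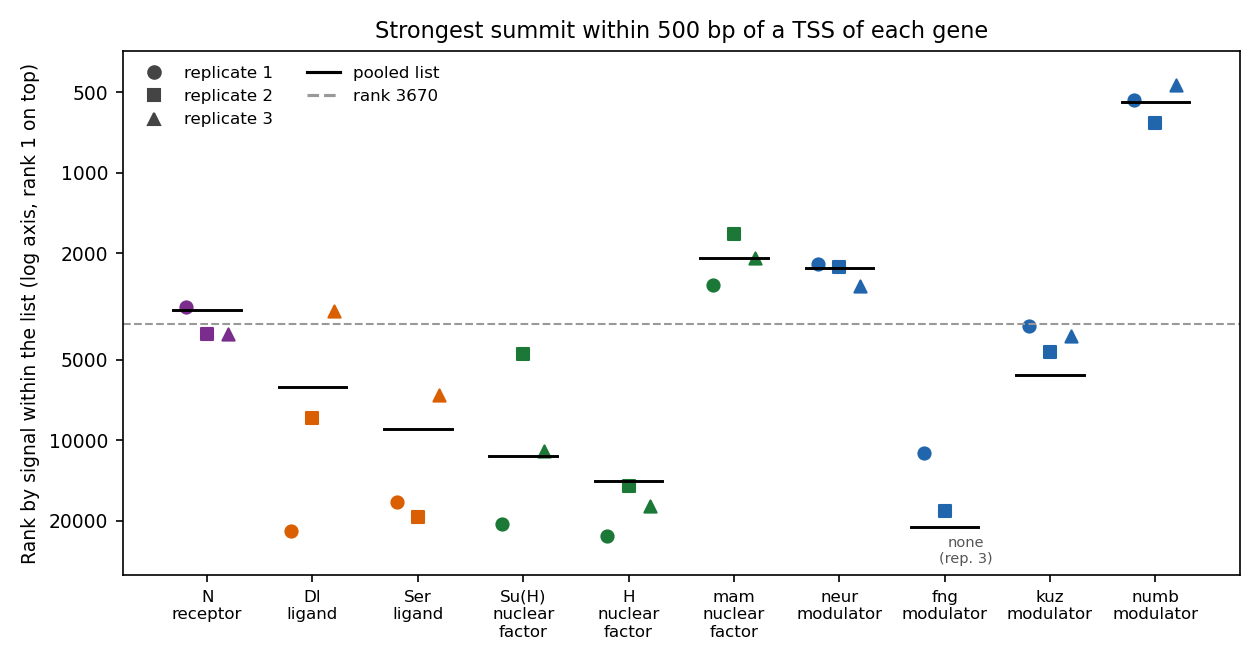
Rank by signal of the strongest summit within 500 bp of any TSS of each gene (y axis, log scale, rank 1 at the top), for replicates 1, 2 and 3 (circle, square, triangle) and the pooled list (bar), by role. The symbols of mam, neur and numb lie above rank 3670 in all 3 replicates, those of N lie on both sides of it, and those of kuz, Ser, Su(H), H and fng lie below it. Dl lies above it in replicate 3 and below it in replicates 1 and 2, and fng has no region in replicate 3.

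The wider candidate lists did not separate the roles. In the pooled list all 10 genes had a summit within 500 bp of a TSS, against 51.2% of all protein-coding genes, 73.7% of those with 2 or more TSSs and 43.0% of those with 1 TSS. By replicate the count was 10 of 10 in replicate 1 (all protein-coding genes 53.1%), 10 of 10 in replicate 2 (50.3%) and 9 of 10 in replicate 3 (45.7%), with fng missing. In the gene body 9 of 10 had a pooled candidate summit, against 40.8% of all protein-coding genes. All 5 members of 20 to 50 kb had one, as did 93.8% of the genes of that length, and all 5 had a pooled promoter candidate, as did 73.1%. Among the top regions alone, promoters were hit in 4 members in replicate 1 (N, mam, neur and numb), against 16.5% of all protein-coding genes. In replicate 2 there were 3 (mam, neur and numb), against 15.4%, and in replicate 3 there were 4 (Dl, mam, neur and numb), against 15.1%. Thus mam, neur and numb were hit in every replicate, whereas N and Dl were hit in 1 replicate each. In gene bodies the top regions hit N, mam, neur and numb in all 3 replicates, with fng added in replicate 2 and Dl in replicate 3. The share of all protein-coding genes was 10.2% in replicate 1, 9.85% in replicate 2 and 10.3% in replicate 3.

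**Figure D3:**
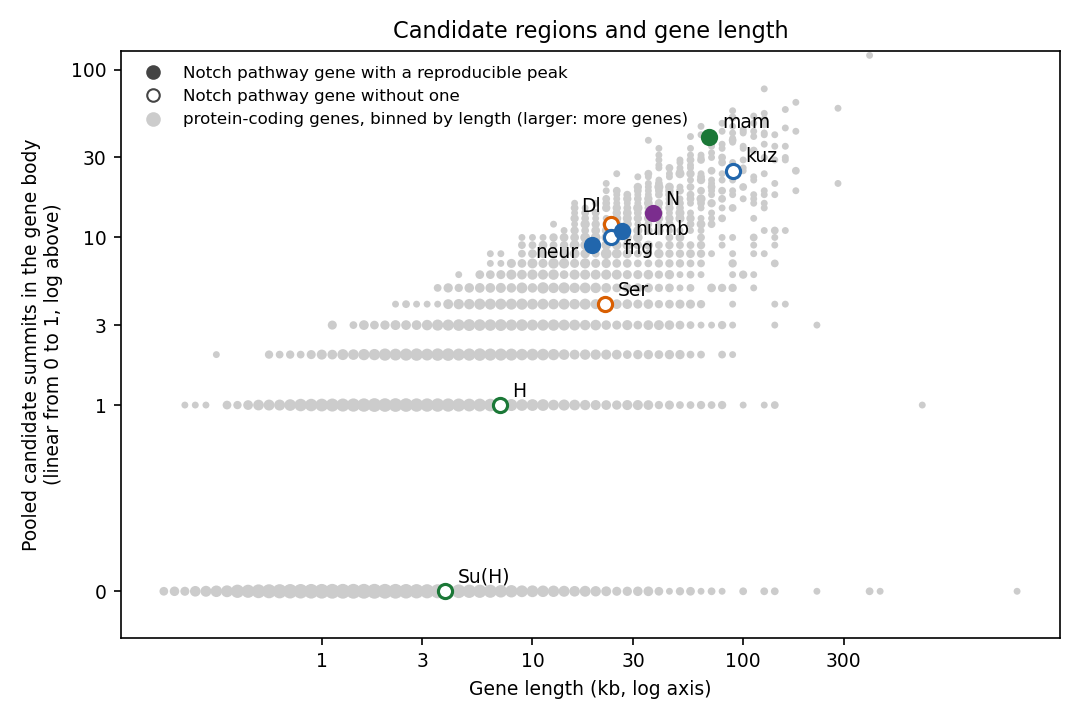
Pooled candidate summits in the gene body (y axis, linear from 0 to 1 and logarithmic above) against gene length in kb (x axis, log scale) for the 10 genes by name, filled where the gene has a reproducible peak at a TSS or in the body, and for all protein-coding genes as grey dots whose size grows with the number of genes. The members range from Su(H), with 0 summits, to mam, with 40. Per 10 kb mam held 5.78 and kuz 2.80, against 1.76 in protein-coding genes over 50 kb.

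The 9 peaks varied in strength. Of the 9, 8 overlapped top regions of all 3 replicates (88.9%), the exception being N peak 1, against 2440 of all 3670 reproducible peaks (66.5%). This contrast depended on the overlap rule. Where a top-region summit had to lie within 100 bp of the peak's summit in all 3 replicates, 6 of the 9 remained, against 58.1% of all peaks. By pooled signal the peaks fell into 4 of 277 or more (N peak 2, mam peak 4, numb peak 1 and neur peak 2) and 5 of 153 or less. Of the 4 strong ones, 1 (numb peak 1) was at a promoter and 3 were not, and all 4 lay in an intron of at least 1 transcript. Of the 9 peaks, 4 (44.4%) lay at a promoter, against 49.0% of all reproducible peaks within 500 bp of any TSS, and the other 5 lay in introns. The shares have unlike bases. The 9 were taken at TSSs or in bodies of the members, whereas the whole set also holds peaks outside genes and promoters. The promoter peaks of mam, neur and numb lay in an intron of a longer transcript as well.

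**Figure D4:**
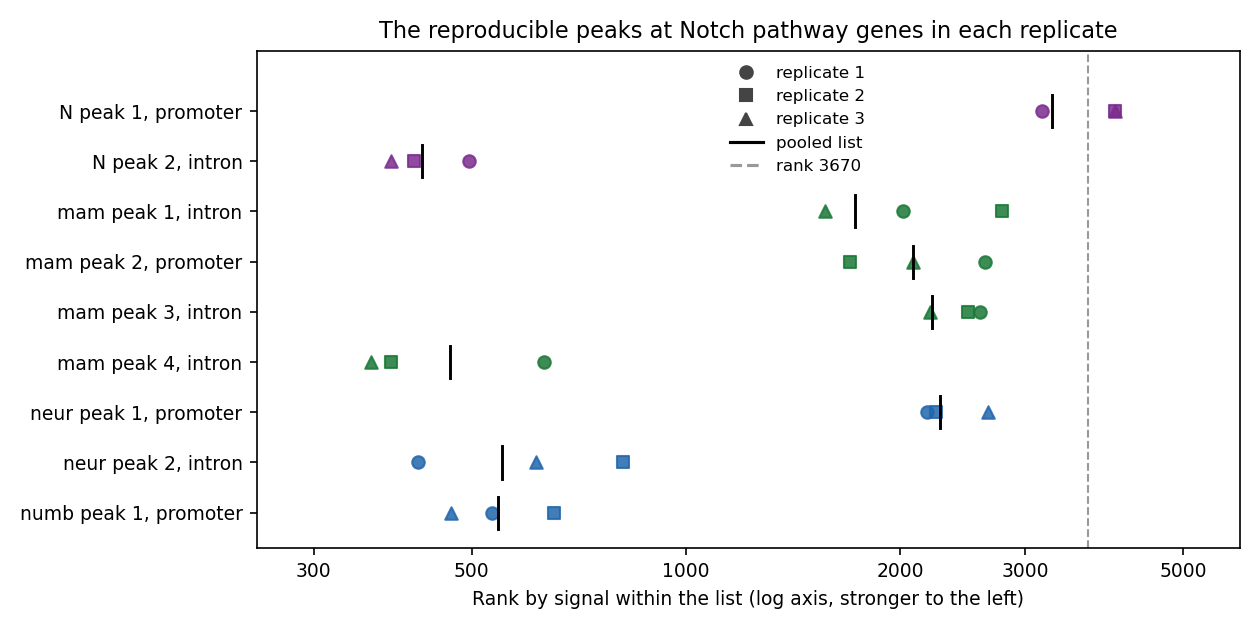
Rank by signal of each of the 9 reproducible peaks in replicates 1, 2 and 3 (circle, square, triangle) and in the pooled list (bar), on a log x axis with stronger ranks to the left and a dashed line at rank 3670. N peak 2, mam peak 4, neur peak 2 and numb peak 1 keep ranks between 361 and 816 in all 3 replicates, and only N peak 1 crosses the line.

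The base composition at the 9 summits was near that of the whole set. Within 50 bp of the summit the A and T share averaged 65.6% ± 12.3 (SD over the 9 peaks), against 64.4% ± 9.07 over all 3670 peaks. In windows 500 bp away it was 57.1% at the 9 peaks and 56.6% at all peaks. It was higher at the summit than in that flank in 7 of the 9, and in 2622 of the 3670. The exceptions were numb peak 1 (56.4%, flank 62.4%) and mam peak 2, which at 37.6% had the lowest share of the 9 against a flank of 76.2%. Computed at the summits of each replicate, the mean share at these peaks was 60.8%, 64.6% and 62.4% in replicates 1, 2 and 3, or 62.6% ± 1.88 (SD, n = 3). This SD is over 3 calls at the same 9 loci, and its mean lay below the 65.6% at the summits of the set. Replicate values were not computed for all 3670 peaks, so these have no background beside them. Among the 6 genes without a reproducible promoter peak, the A and T share at the pooled promoter candidate was 68.3% in kuz and between 44.6% and 52.5% in the others.

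A search for 8 motifs on both strands within 50 bp of the summit found few matches. CGATA, the BEAF-32 motif, occurred in N peak 2 and mam peak 1 (2 of 9), against 16.6% of all reproducible peaks. GAGAG, bound by GAGA factor, occurred in mam peak 1 (10.2% of all), and CAGCTG in numb peak 1 (4.06% of all). None of the 9 windows held GTGNGAA, the core of the Su(H) site (4.44% of all), TATCGATA of the factor DREF (1.88%), which contains CGATA, or CAGGTAG of the factor Zelda (0.463%). GGTCACACT, known as promoter motif 1 (0.627%), and AGATAA or TGATAA, bound by GATA factors (15.2%), were not found either. The Su(H) promoter candidate, which was not reproducible, held TATCGATA. That of kuz, not reproducible either, held GAGAG and the GATA motif, and those of Dl, Ser, H and fng held no match. With 9 peaks these are single occurrences, and a match shows letters and not a binding event.

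Beyond the 10 core genes, 30 further pathway genes picked by role were counted in the same way. Of these, 6 (20%) were occupied, against 15.8% of all protein-coding genes, and 22 had a pooled candidate at a promoter, against 51.2% of all protein-coding genes. The strongest was lgd, listed as l(2)gd1, a regulator of the sorting of N in endosomes, with a signal of 636 (rank 72), which was higher than that of any peak of the 10 core genes. Its summit also lay within 500 bp of a TSS of Reps. The corepressor gro, which H recruits, had 2 reproducible promoter peaks, of which only the stronger was examined. That peak had a signal of 467 (rank 158) and was shared with no other promoter. The other 4 were aph-1, a subunit of the γ-secretase that makes the membrane cut (277, rank 549), rumi, which adds glucose to N (200.3, rank 1056), AP-2alpha of the clathrin adaptor (197, rank 1095), and skd of the Mediator complex (131, rank 2229). The strongest promoter peak of each of these 4 genes (aph-1 had 2) also lay within 500 bp of a TSS of another gene. It therefore cannot be assigned to the pathway gene alone. None of the 9 peaks of the core genes was shared in this way, but 5 of the 9 lay outside promoters. The share of all reproducible peaks that lie at TSSs of several genes was not computed. The 4 genes of the Bearded family, which antagonise neur, were not occupied. In the gene body 3 of the 30 had a reproducible summit, against 9.85% of all protein-coding genes. These were gro, at its stronger promoter peak, and aux (best signal 250.1, rank 684) and CtBP (118, rank 2616), which were not occupied.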

How the data were processed

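ChIP-seq peak lists from 3 biological replicates of 1 group, a pooled list and a reproducible set were used as deposited on dm6. The lists on dm3 were not used, as no gene models of that build were at hand. For the aligner and the peak caller, names were not given in the sources used here. Per the deposited readme texts, candidate regions came from each replicate, or the pooled replicates, with the control. The signal of a region is a score deposited by the authors. The q-values were deposited by the authors as −log10 values, which was 3.88 for every reproducible peak. No column of another sample was present (0).

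Summits were placed against Ensembl release 115 genes on Release 6, whose arm names and coordinates match dm6, and sequences were read from the RefSeq copy of Release 6. Of the members, 9 were found by symbol and Dl through the synonym Delta, and 2 of 30 other pathway genes were also found through a synonym. A summit within 500 bp of a TSS (23581 distinct TSSs) was called promoter, and top regions of replicates were matched to peaks by an overlap of at least 1 bp. Ranks are within a list, since signals of separate lists are not on a common scale. Of the peaks, 76.6% had the same width of 396 bp.

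The text names all 10 members, the 6 occupied other pathway genes of highest signal, and genes sharing a member's promoter. It also names aux and CtBP, which had reproducible summits in the body only. Genes named as neighbours otherwise were chosen after their values were seen. The members and lists were chosen with earlier results of these data known, so counts are set beside the share of all protein-coding genes with no test. Placement was tested on simulated data. Alternatives were other distances, a stricter peak set, other overlap rules and windows, and leaving out each replicate. Python 3.11.15, pandas 2.3.3, numpy 2.4.6 and matplotlib 3.10.9 were used.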

Additional observations from a re-analysis of the deposited data

How the results depend on the processing

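Of 27 alternatives, 23 left the count within 1.5 times its value, or the A and T share within 1 SD of the replicates, and 4 did not. Keeping only peaks above the median signal of the set left 1 occupied gene of the 10, numb (8.60% of all protein-coding genes), and 5 peaks at or in the genes in place of 9. The genes with a summit in the body stayed at 4 (N, mam, neur and numb), against 5.80% of all protein-coding genes. With top lists of 1835 regions, 4 of the 9 peaks were top regions of all 3 replicates, against 36% of all reproducible peaks. A window of 100 bp on each side gave an A and T share of 62.1%, against 63.6% at all peaks. Requiring a peak to be a top region of both remaining replicates, with each replicate left out in turn, gave 3 occupied genes every time, because N was lost each time, against 11.5% to 12.4% of all protein-coding genes. It gave 4 genes with a summit in the body, against 7.69% to 8.05%, and 8 peaks. The reproducible set was kept as made from all 3 replicates, so these counts could only fall or stay the same. At 250 bp from a TSS 3 genes were occupied, without N, against 12.5% of all protein-coding genes, and at 1000 bp 5, with fng added, against 18.5%. No paired analysis was possible because the data hold 1 group. The lists carry no read counts, so the effect of depth on a missing peak at Dl, Ser, Su(H), H, fng or kuz was not tested.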

Other observations

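The surroundings of the genes differed. Within 20 kb outside the gene, neur had 5 reproducible peaks, at Kcmf1, Mst85C and, with 3 summits, inside Kdm2, and the strongest of them had a signal of 246. The nearest peak outside numb lay 6.10 kb upstream, at the promoters of scat and FucTB, with a signal of 238. Dl stood in a long stretch without reproducible peaks, since the nearest one, at the promoters of Ino80 and Aptx with a signal of 338, lay 77.0 kb upstream. Ser had 1 peak 10.9 kb upstream, of signal 95.6, which was a top region in 0 of the 3 replicates, and no TSS of another gene was nearer to it than that of Ser. The nearest peaks outside Su(H) and H lay inside other genes, ck at 13.5 kb and Pi3K92E at 5.30 kb. These neighbouring genes were named after their values were seen.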
